A study of Rattus norvegicus with 3 samples.

Results

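The genes of the cartilage-type collagens, Col2a1, Col9a1, Col9a2, Col9a3, Col11a1 and Col11a2, were followed through the postnatal rat cochlea. They were chosen by name, and all 6 of the 6 listed genes were found among the 32623 genes of the matrices. All 6 also passed the limit of 10 CPM over all kept cells, which 7750 genes passed. CPM is the number of UMIs (unique molecular identifiers, which mark single captured transcripts) of a gene, scaled to a total of 1000000 UMIs in the library or group. Their Ensembl identifiers are ENSRNOG00000058560 for Col2a1, ENSRNOG00000012920 for Col9a1, ENSRNOG00000011502 for Col9a2, ENSRNOG00000009531 for Col9a3, ENSRNOG00000023148 for Col11a1 and ENSRNOG00000000463 for Col11a2.

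Collagens are triple helices of chains, and these genes build the fibrils of cartilage. Type II collagen, made of chains of Col2a1, forms the core of the fibril. Type XI collagen lies inside the same fibril and limits its width, and it joins a chain of Col11a1, a chain of Col11a2 and a further chain that is a product of Col2a1. Type IX collagen decorates the surface of the fibril and joins the chains of Col9a1, Col9a2 and Col9a3. In the cochlea the same collagens are known in the tectorial membrane, the gel sheet over the hair cells that the cochlear epithelium secretes, and in the connective tissue of the spiral limbus and spiral ligament. Changes in several of these genes are known causes of inherited hearing loss.

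The cells came from untreated Sprague-Dawley rats at P1, P7 and P14, with tissue of 40 rats pooled per stage and 1 library of the 10x Genomics Chromium 3′ kit for each. The dissection kept the cochlear basal membrane and removed the spiral ganglion, spiral ligament and stria vascularis. The labels call the cell type greater epithelial ridge cell (the ridge of tall epithelial cells beside the developing hair cells), but only 577 of the 30641 kept cells lay in the group that carried epithelial markers. Kept cells numbered 12779 at P1, 12581 at P7 and 5281 at P14, with 98005495, 93080129 and 11641065 UMIs and a median of 6565, 6878 and 1614 UMIs per cell. The P14 library was therefore the shallowest, and P1 and P7 shared 53 barcodes, P1 and P14 shared 16 and P7 and P14 shared 19. With 1 library per stage, stage and library cannot be told apart, so no test between stages was possible and every interval in the text is a 95% interval of counting error only. Lower CPM in a library can reflect fewer cells of a type or less RNA per cell, and these cannot be told apart in the summed counts.

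The stretches of DNA before the gene starts are shown because the levels of these genes are compared with each other throughout, and their promoters differ in letters. RefSeq (GRCr8, a later build than the rn6 genome the authors aligned to) gave promoter sequence for 4 of the 6 genes, and Col2a1 and Col9a3 are named only. The 250 bases before the start are printed 5′ to 3′ on the strand of the gene, for Col9a1 at chr9:34081114-34081363 (plus strand), Col9a2 at chr5:139892548-139892797 (plus strand), Col11a1 at chr2:204508886-204509135 (plus strand) and Col11a2 at chr20:4817649-4817898 (minus strand). Capitals mark GGGCGG, the GC box bound by Sp factors.
Col9a1: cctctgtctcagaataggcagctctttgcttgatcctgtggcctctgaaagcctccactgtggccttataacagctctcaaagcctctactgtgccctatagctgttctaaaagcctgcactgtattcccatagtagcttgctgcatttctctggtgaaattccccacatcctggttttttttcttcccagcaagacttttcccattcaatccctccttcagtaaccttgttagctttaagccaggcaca
Col9a2: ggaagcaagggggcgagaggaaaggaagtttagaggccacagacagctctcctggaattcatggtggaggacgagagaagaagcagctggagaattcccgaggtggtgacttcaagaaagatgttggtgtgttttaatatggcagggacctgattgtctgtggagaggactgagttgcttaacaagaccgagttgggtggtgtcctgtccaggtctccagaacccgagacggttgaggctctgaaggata
Col11a1: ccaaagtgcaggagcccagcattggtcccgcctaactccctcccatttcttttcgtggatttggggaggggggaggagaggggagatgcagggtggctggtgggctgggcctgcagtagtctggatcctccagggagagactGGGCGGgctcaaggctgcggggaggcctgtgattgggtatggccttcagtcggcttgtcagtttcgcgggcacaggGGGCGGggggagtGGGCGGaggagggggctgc
Col11a2: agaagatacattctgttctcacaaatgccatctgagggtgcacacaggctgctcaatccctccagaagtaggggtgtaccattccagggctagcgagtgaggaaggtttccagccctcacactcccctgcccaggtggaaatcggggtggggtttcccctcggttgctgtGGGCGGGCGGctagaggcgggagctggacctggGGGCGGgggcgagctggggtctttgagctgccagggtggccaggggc
Both strands were searched for GGGCGG, for the TATA box TATAAA and for ACAAAG and AACAAT, short forms of the site that Sox factors bind. Col11a1 held 3 matches of GGGCGG and Col11a2 held 3, of which the first pair overlaps, while Col9a1 and Col9a2 held 0. Of all 33469 promoters of this length in the table, 30.5% held GGGCGG, 12.9% TATAAA, 16.3% ACAAAG and 10.3% AACAAT, and the last 3 of these were found in none of the 4 windows. The windows of Col11a1 and Col11a2 were 65.6% and 62.8% G and C, those of Col9a1 and Col9a2 46.8% and 52%, and the median over all promoters was 51.2%. A match of letters is a description and shows no binding.

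The level of each gene was then compared between the stages. The kit tags each transcript once near its 3′ end, so the UMIs count molecules and were not divided by gene length, although the efficiency of capture can still differ between genes. Col9a1 was the most abundant chain at P1 and P7, with 1828 CPM at P1 (95% interval 1819 to 1836), 3560 at P7 (3547 to 3572) and 644 at P14 (629 to 658). Col9a2 had 567, 1317 and 143 CPM at P1, P7 and P14, and Col9a3, the scarcest of the 3 type IX genes at each stage, had 163, 135 and 35.3. Both Col9a1 and Col9a2 were thus highest at P7, whereas Col9a3 was highest at P1, and all 3 were lowest at P14.

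Col2a1, the gene of type II collagen, had 338 CPM at P1 (334 to 342), 570 at P7 (565 to 575) and 288 at P14 (278 to 298). Col11a1 had 283 at P1 (280 to 287), 436 at P7 (431 to 440) and 653 at P14 (639 to 668). Col11a2 had 79 at P1 (77.2 to 80.8), 300.1 at P7 (296 to 304) and 232 at P14 (223 to 240). The order of the genes therefore differed between the libraries, and at P14 the interval of Col11a1 overlapped that of Col9a1 at the top of the set.

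**Figure D1:**
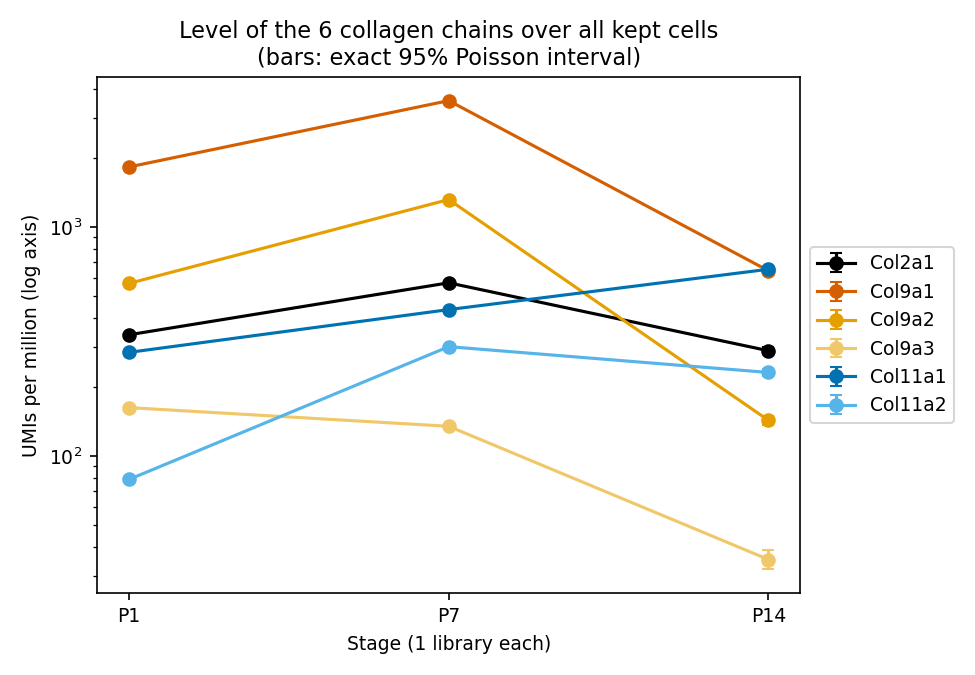
Level of each of the 6 collagen genes over all kept cells in the libraries of P1, P7 and P14, in CPM on a log axis, with exact 95% Poisson intervals as bars. The 3 type IX genes are lowest at P14, Col11a1 is highest there at 653, and Col11a2 stands at 79 at P1 and 300.1 at P7.

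Between P1 and P7 the largest ratio was that of Col11a2, which was 3.8 times as high at P7 (3.7 to 3.9), followed by Col9a2 at 2.32 times (2.3 to 2.35). Col9a1 was 1.95 times as high (1.94 to 1.96), Col2a1 1.69 times (1.66 to 1.71) and Col11a1 1.54 times (1.51 to 1.56), while Col9a3 was at 0.829 of its P1 level (0.81 to 0.848). On the scale log2(CPM + 10), 2 of the 6 genes were at least 2-fold higher at P7, where 3.32% of all 7750 genes were, and 0 of the 6 were at least 2-fold lower, where 1.99% were. The median of the 6 genes on this scale was 0.85 and that of all genes 0.09. With the stage ratios divided by the median ratio over genes, 188 genes were at least 2-fold higher and 213 lower in place of 257 and 154, and 2 of the 6 were past 2-fold there too.

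Between P7 and P14 the type IX genes showed the largest differences. Col9a2 was 9.21 times lower at P14, Col9a1 5.53 times and Col9a3 3.82 times. Col2a1 was 1.98 times lower and Col11a2 1.3 times lower, and Col11a1 was 1.5 times as high at P14 (1.46 to 1.54). At least 2-fold lower were 3 of the 6 genes, all of type IX, against 5.34% of all genes, and 0 of the 6 were at least 2-fold higher, against 8.03%. Type IX genes made up 78.5% of the UMIs of the 6 genes at P1, 79.3% at P7 and 41.2% at P14.

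The P14 library held other cell groups than those of P1 and P7, so the levels by group stand beside these ratios. Cells were clustered without the 6 genes among the variable genes, and a group was named only where its markers allowed it, otherwise by its leading genes. Among groups of at least 50 cells, 18 were found at both P1 and P7 and 5 at both P7 and P14. These 5 were the glia-like, endothelial-like, macrophage-like, pericyte-like and cochlear epithelium-like cells. At P14 the otic mesenchyme-like, Dlx5 and Sfrp4, Tac1 and Col6a1, fibroblast-like, and Gcg and Car3 cells each numbered 0. The libraries were clustered together with no step to align them, at medians of 6565, 6878 and 1614 UMIs per cell at P1, P7 and P14. Whether cells were grouped by library or depth was not tested, so a count of 0 does not show that a cell type was absent. At P14, between 71.2% (Col11a2) and 83.7% (Col11a1) of the UMIs of each of the 6 genes lay in 1 group, the Ptgds and Coch cells, which held 37.4% of the UMIs of that library and had only 47 cells at P7. At P1 the otic mesenchyme-like cells held 22.1% of all UMIs and between 42.6% (Col9a1) and 60.9% (Col9a3) of those of each gene. At P7 the Dlx5 and Sfrp4 cells held 18.4% of all UMIs and between 23.1% (Col11a2) and 44.7% (Col11a1) of those of each gene, and the Gcg and Car3 cells, with 8.67% of all UMIs, held between 7.65% (Col11a1) and 30.7% (Col11a2). Coch, which encodes cochlin, marks fibrocytes of the cochlea, but the markers of the Ptgds and Coch cells did not allow a name. This group had 4 raised markers of the osteoblast list, with Dmp1 among its leading genes, and 7 of the fibroblast list. A group led by Ptgds and Coch was also found at resolution 0.4 (2902 cells), but not at resolution 1.2. Clusters led by Coch and Dmp1 (1727 cells) and by Ptgds and Slc7a11 (801 cells) were found there, and levels in them were not measured. At the depth of P14, between 68.5% (Col11a1) and 94.4% (Col9a3) of its kept cells had no UMI of a given gene, so a minority carried the UMIs.

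The order of the groups differed between the libraries, so it is given for each. Col9a1 at P1 was highest in the Gcg and Car3 cells at 6050 CPM (5892 to 6212), followed by the Dlx5 and Sfrp4 cells at 4387, the Tac1 and Col6a1 cells at 3687 and the otic mesenchyme-like cells at 3518. At P7 the first pair stood in the other order, with the Dlx5 and Sfrp4 cells at 8540 (8497 to 8584) and the Gcg and Car3 cells at 7104 (7046 to 7162). Next at P7 came the Tac1 and Col6a1 cells at 5257, the otic mesenchyme-like cells at 4231 and the fibroblast-like cells at 3831. None of these neighbours had overlapping intervals. At P14 the Ptgds and Coch cells stood first at 1436 (1401 to 1472). The Dlx5 and Sfrp4 cells are mostly of P7 (2305 of 2495) and lead with Dlx5, a homeobox regulator of bone and cartilage, and Sfrp4, a secreted Wnt modulator. The otic mesenchyme-like cells, 4183 in number, have Isyna1, Col9a3, Crym and Otor among their leading genes. Of the 12 markers of the otic mesenchyme list only 3 were raised there, and the mean log2 ratio over the list was 0.17. The fibroblast-like cells, 1629 of 1677 from P7, lead with Aard, Ramp3, Lepr and Dcn. The Tac1 and Col6a1 cells are mostly of P1 (2251 of 2436).

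The Gcg and Car3 cells, 954 in number, carried raised markers of both the cartilage and the otic mesenchyme list and so kept their leading genes as a name. Among these leading genes are Cnmd and Cytl1, secreted proteins known from cartilage, at 2024 and 801 CPM, and the fibrocyte gene Otos. Cnmd was also at 1785 CPM in the cochlear epithelium-like cells. Of the 9 markers of the cartilage list only 3 were raised in the Gcg and Car3 cells, where Acan was at 1.56 CPM, Matn3 at 0.222, Matn1 at 0.111 and Comp at 0.111. In this group Col2a1 was highest of the groups at both P1, at 1191 CPM (1122 to 1264), and P7, at 1482 (1455 to 1509), and so was Col11a2, at 460 (418 to 507) and 1062 (1040 to 1085). Col9a2 was highest there at P7, at 3194 (3155 to 3233), while at P1 the cochlear epithelium-like cells stood above it, at 2165 against 1626. Col9a3 was at 538 (491 to 588) in the Gcg and Car3 cells and 447 (438 to 456) in the otic mesenchyme-like cells at P1. At P7 these groups were at 360 (347 to 374) and 336 (321 to 351), with overlapping intervals.

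Behind the Gcg and Car3 cells, Col11a2 at P7 was at 893 CPM in the otic mesenchyme-like cells. Next came levels of 469 (412 to 532) in the Hba-a2 and Col6a2 cells, 452 (422 to 484) in the cochlear epithelium-like cells and 377 in the Dlx5 and Sfrp4 cells, of which the first pair had overlapping intervals. Col11a1 had another order. At P1 the Dlx5 and Sfrp4 cells, at 645 (602 to 690), and the otic mesenchyme-like cells, at 643 (632 to 654), had overlapping intervals at the top. At P7 the Dlx5 and Sfrp4 cells stood first at 1057 (1042 to 1072), and at P14 the Ptgds and Coch cells at 1462 (1427 to 1499).

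**Figure D2:**
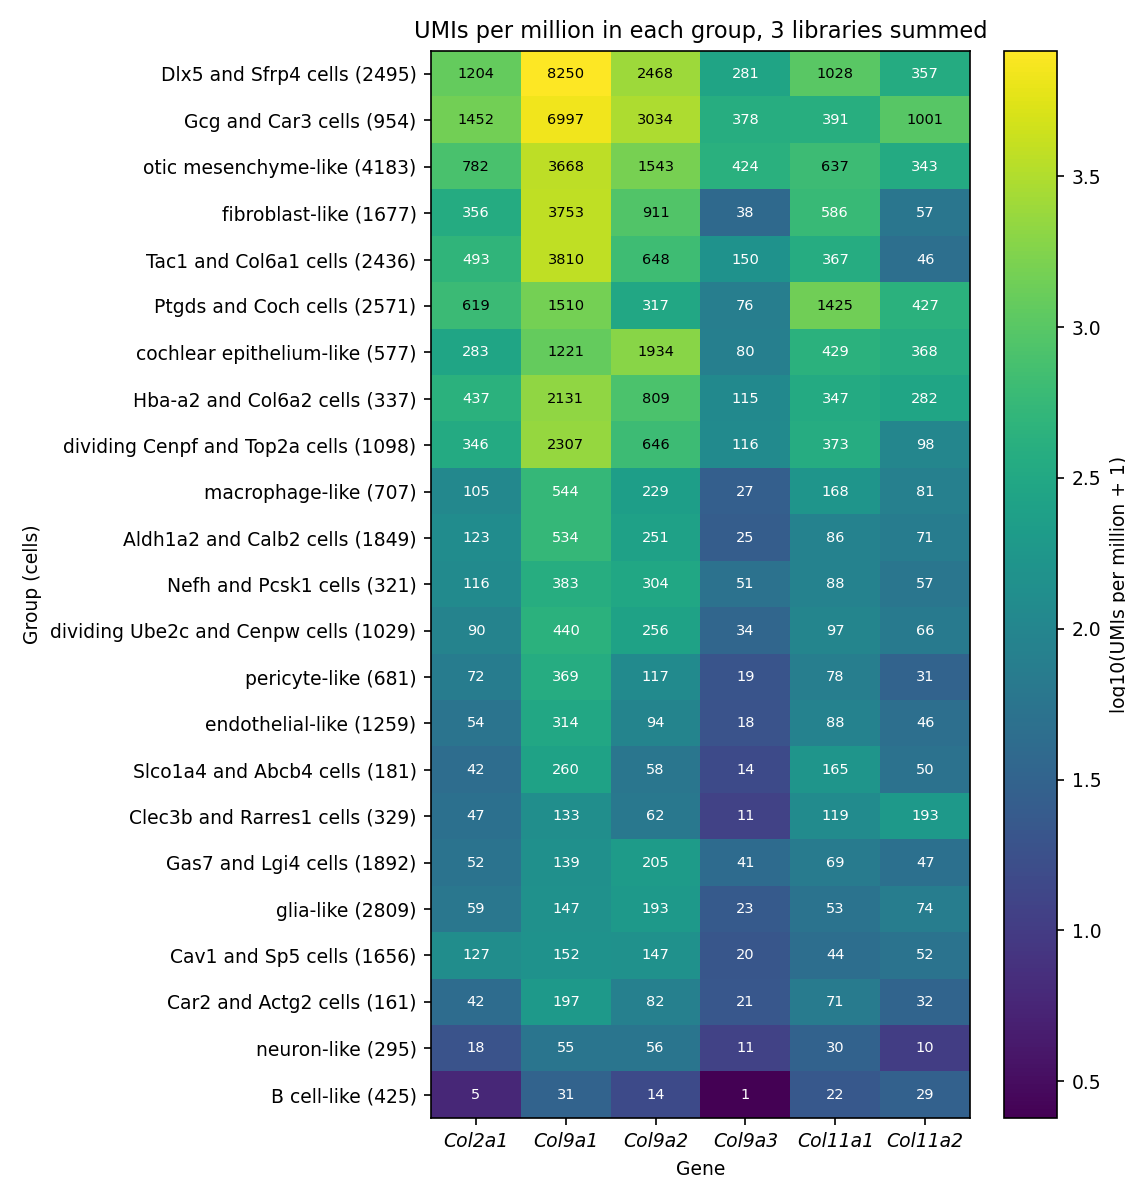
CPM of the 6 collagen genes (columns) in groups of at least 50 cells (rows, with the number of cells), the 3 libraries summed and the group with over 50% of its cells marked as doublets left out, coloured on a log scale and ordered by the sum over the 6 genes. The Dlx5 and Sfrp4 cells and the Gcg and Car3 cells stand at the top, and the neuron-like and B cell-like cells at the bottom. Groups differ in their mix of libraries, so the order over summed libraries is not that at each stage.

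Some defining genes of cartilage were low over all kept cells. Acan, the aggrecan core protein, was at 2.31 CPM over all kept cells, Matn1 at 0.25, Comp at 0.77 and Col10a1, the collagen of hypertrophic cartilage, at 0.1, whereas Col2a1 was at 442. These genes of low level are named here as markers of cartilage. In its highest group Acan was at 20.1 CPM (Ptgds and Coch cells), Matn1 at 1.9 (Gas7 and Lgi4 cells), Comp at 5.32 (glia-like cells) and Col10a1 at 1.99 (Ptgds and Coch cells). Chad and Hapln1, also under 10 CPM over all kept cells, reached 75.9 in the Ptgds and Coch cells and 15.8 in the otic mesenchyme-like cells. Of the 16 cartilage matrix companions listed, 8 passed 10 CPM. The highest of these were Matn4 at 449, Cnmd at 205, Mia at 117 and Cytl1 at 80.2.

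The lowest levels were those of the B cell-like cells, with 4.86 CPM of Col2a1 and 30.6 of Col9a1, and of the neuron-like cells, with 18 and 55. Cells of blood and vessel and neurons are not known for these collagens, so the levels in these cells are given as a comparison. Free RNA and doublets can both give such cells UMIs, and the part of each was not tested. Col9a3 had 0 UMIs in the B cell-like cells of P14, which allows up to 2.15 CPM. Macrophage-like cells had 253 CPM of Col9a1 at P1, 1114 at P7 and 312 at P14, the endothelial-like cells 353, 480 and 78.5, and the pericyte-like cells 260, 470 and 553. After each cell was thinned to 1000 UMIs, 98.6% of the Gcg and Car3 cells had a Col9a1 UMI, 96.6% of the Dlx5 and Sfrp4 cells, 86.1% of the otic mesenchyme-like cells and 82.9% of the fibroblast-like cells. The same share was 17.6% in the macrophage-like cells, 8.94% in the endothelial-like cells, 4.07% in the neuron-like cells and 2.51% in the B cell-like cells, whose median depths before thinning were 5382, 1358, 20999 and 2323 UMIs. Those of the 4 high groups, in the order given, were 9086, 7008, 6089 and 6820. All these shares sum the libraries, and the groups differ in their mix of them. The neuron-like cells were mostly of P1 (288 of 295) and the B cell-like cells mostly of P14, where the 4 high groups had no cells. The share with a Col2a1 UMI ran from 73.3% in the Gcg and Car3 cells to 6.02%, 3.13%, 2.03% and 0.557% in these 4 comparison groups.

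Within groups, the comparison of P7 with P1 differed between genes. Col11a2 was higher at P7 in 18 of the 18 groups present at both stages, by 1.62 to 9.15 times, with the interval above 1 in 17 of them. In the otic mesenchyme-like cells it was at 196 CPM at P1 and 893 at P7, 4.55 times as high (4.37 to 4.74), and was the 1 of 6 genes at least 2-fold higher, against 3.25% of the genes tested there. In the Gcg and Car3 cells it was at 460 and 1062 and was again the 1 of 6, against 4.16%. The Tac1 and Col6a1 cells had 28.3 CPM of Col11a2 at P1 and 259 at P7, 9.15 times as high (7.97 to 10.5). The P7 part of that group had 185 cells and the P1 part of the Gcg and Car3 cells 115, so these ratios rest on few cells at 1 stage. Neither the Tac1 and Col6a1 cells nor the Dlx5 and Sfrp4 cells were a group at resolution 0.4. A group led by Tac1 and Sfrp4 held 2361 cells of P1 and 2524 of P7 there. How the ratios within the groups depend on this split was not tested.

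Col9a2 was higher at P7 in 15 of the 18 groups. It was 3.42 times as high in the Dlx5 and Sfrp4 cells, at 759 and 2596 CPM, and 3.13 times in the Tac1 and Col6a1 cells, at 555 and 1738. In both of these groups Col9a2 and Col11a2 were the 2 of 6 genes at least 2-fold higher, against 4.32% and 3.57% of the genes tested there. Col9a3 took the other direction and was lower at P7 in 13 of the 18 groups, among them the otic mesenchyme-like cells with 447 and 336 CPM. Col11a1 was higher in 9 groups and lower in 9. Groups not known for these collagens differed too, with Col11a2 4.5 times as high at P7 in the macrophage-like cells, and the part of free RNA in these ratios was not tested.

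With the P7 groups weighted by their share of UMIs at P1, over the 18 groups that held 93% of the UMIs at P1 and 87.2% at P7, the ratio of P7 to P1 was 4.33 for Col11a2, where it was 3.99 with the groups as found. It was 2.11 for Col9a2 (2.28 as found), 1.4 for Col9a1 (1.8), 1.42 for Col2a1 (1.66), 1.31 for Col11a1 (1.38) and 0.81 for Col9a3 (0.86). The ratios of Col11a2 and Col9a2 were thus past 2-fold at an equal mix of groups, and that of Col9a1 differed most between the mixes.

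The cochlear epithelium-like cells, which lead with Epcam, Epyc, Mia and the tectorial membrane gene Tectb, had another pattern. Col9a2 was the most abundant of the 6 genes there at P1, at 2165 CPM (2106 to 2225), and at P7, at 1874 (1812 to 1938). At P14 it was at 240 (184 to 307), below Col11a1, Col11a2 and Col9a1. Col9a1 was at 1232, 1321 and 422, and Col2a1 at 303, 266 and 224, with overlapping intervals between P7 and P14. Of the 6 genes, 0 were at least 2-fold higher at P7 than at P1, against 5.55% of the genes tested there. At P14, with 78 cells, Col9a2 was 7.81 times and Col9a1 3.13 times lower than at P7, while Col11a1 was at 689 against 352, 1.96 times as high (1.65 to 2.32). Tecta and Tectb, which encode tectorins of the tectorial membrane and are among the markers of this group, were at 588 and 830 CPM there with the libraries summed. Over all kept cells of P14 they were at only 2.58 and 0.0859 CPM. The group held 78 cells at P14, but 53 with the 6 genes allowed among the variable genes. A separate cluster of 26 cells, all of P14, then led with Otos and Ucma, and whether these came from the 78 was not tested. The 21 cells with hair cell markers, all of P1, had 122 CPM of Col9a1 and 42.6 of Col2a1, within the range of the macrophage-like, endothelial-like, neuron-like and B cell-like cells.

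The genes whose chains assemble into type XI collagen stood in ratios that differed between cell groups and stages. Over all kept cells there were 0.279 UMIs of Col11a2 for each of Col11a1 at P1 (0.272 to 0.286), 0.689 at P7 (0.678 to 0.699) and 0.354 at P14 (0.339 to 0.37). The ratio was higher at P7 than at P1 in 18 of 18 groups. It was lower at P14 than at P7 in 5 of 5, the glia-like, endothelial-like, macrophage-like, pericyte-like and cochlear epithelium-like cells. In the Gcg and Car3 cells it was 1.02 at P1 (0.888 to 1.17) and 2.77 at P7 (2.65 to 2.88), and in the otic mesenchyme-like cells 0.305 and 1.46. In the fibroblast-like cells at P7 it was 0.1 (0.0923 to 0.108) and in the Tac1 and Col6a1 cells at P1 0.0831 (0.0755 to 0.0913). At P7 alone the ratio in these groups thus ran from 0.1 to 2.77, with the macrophage-like cells at 0.971 (0.797 to 1.18). The endothelial-like cells of P7 had 0.714 (0.543 to 0.936). The part of free RNA in these ratios was not tested.

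**Figure D3:**
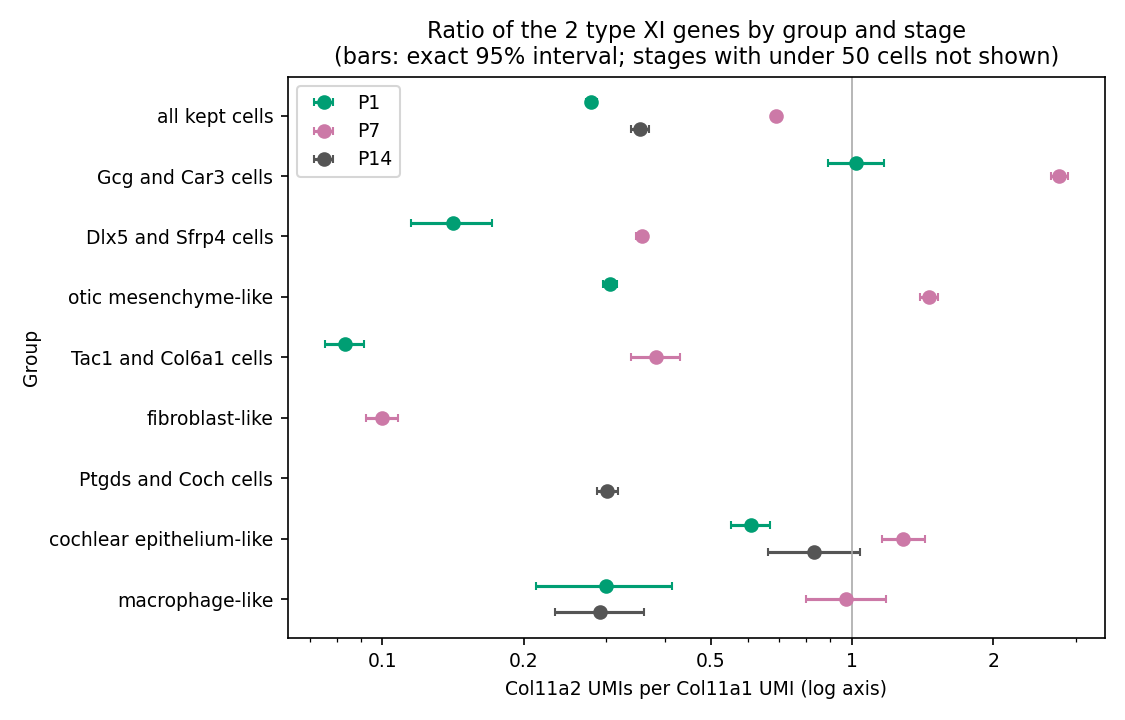
UMIs of Col11a2 for each UMI of Col11a1 (log axis) in all kept cells and 8 groups at P1, P7 and P14, with exact 95% intervals as bars and a line at a ratio of 1. At P7 the Gcg and Car3 cells stand at 2.77 and the fibroblast-like cells at 0.1, and in each group with both stages the P7 point lies to the right of the P1 point.

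The number of Col2a1 UMIs was set against that of the type XI genes. There were 0.933 UMIs of Col2a1 for each UMI of Col11a1 and Col11a2 together at P1 (0.919 to 0.947), 0.775 at P7 (0.766 to 0.784) and 0.325 at P14 (0.313 to 0.338). Both the Gcg and Car3 cells at P7, with 1.02 (0.999 to 1.05), and the Tac1 and Col6a1 cells at P1, with 1.27 (1.23 to 1.32), had about as much Col2a1 as type XI message, or more. The Ptgds and Coch cells at P14 had 0.332 and the cochlear epithelium-like cells 0.409 at P1 and 0.331 at P7. Type IX message exceeded Col2a1 message 7.56 times at P1, 8.79 times at P7 and 2.85 times at P14.

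The type IX genes were far from equal in abundance. Col9a1 took 71.5% of their UMIs at P1, 71% at P7 and 78.3% at P14. Col9a2 took 22.2%, 26.3% and 17.4%, and Col9a3 6.36%, 2.69% and 4.3%. For each UMI of Col9a2 there were 0.287 of Col9a3 at P1 (0.282 to 0.292), 0.102 at P7 (0.1 to 0.104) and 0.247 at P14 (0.221 to 0.275). This ratio was lower at P7 than at P1 in 18 of 18 groups, the macrophage-like and endothelial-like cells among them. It was higher at P14 than at P7 in 5 of 5, the glia-like, endothelial-like, macrophage-like, pericyte-like and cochlear epithelium-like cells. The fibroblast-like cells at P7 had a small Col9a3 share, 0.793% of the type IX UMIs (0.721% to 0.87%), against 4.74% in the otic mesenchyme-like cells of the same library (4.54% to 4.95%).

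In the cochlear epithelium-like cells Col9a2 outnumbered Col9a1, with 1.76 UMIs of Col9a2 for each of Col9a1 at P1 (1.68 to 1.84) and 1.42 at P7 (1.35 to 1.5), where all kept cells had 0.31 and 0.37. At P14 the ratio was 0.569 (0.41 to 0.784). Cells of the glial groups had low levels but the same order of the chains at P1. The glia-like cells of P1 had 218 CPM of Col9a2 (196 to 241) and 39.1 of Col9a1 (30.2 to 49.8), a ratio of 5.57 (4.27 to 7.37). The Gas7 and Lgi4 cells, which had 6 raised glial markers, had a ratio of 2.54 at P1 (2.27 to 2.85). Macrophage-like cells of the same library had 0.5 (0.418 to 0.596) and neuron-like cells 1.03 (0.883 to 1.2), and 21.1% of the glia-like cells of P1 had a Col9a2 UMI after thinning against 7.73% of the macrophage-like cells, at median depths of 5806 and 7541. By P7 the ratio was 1.26 in the glia-like and 0.808 in the Gas7 and Lgi4 cells, while their Col9a1 levels were 160 and 296 CPM.

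**Figure D4:**
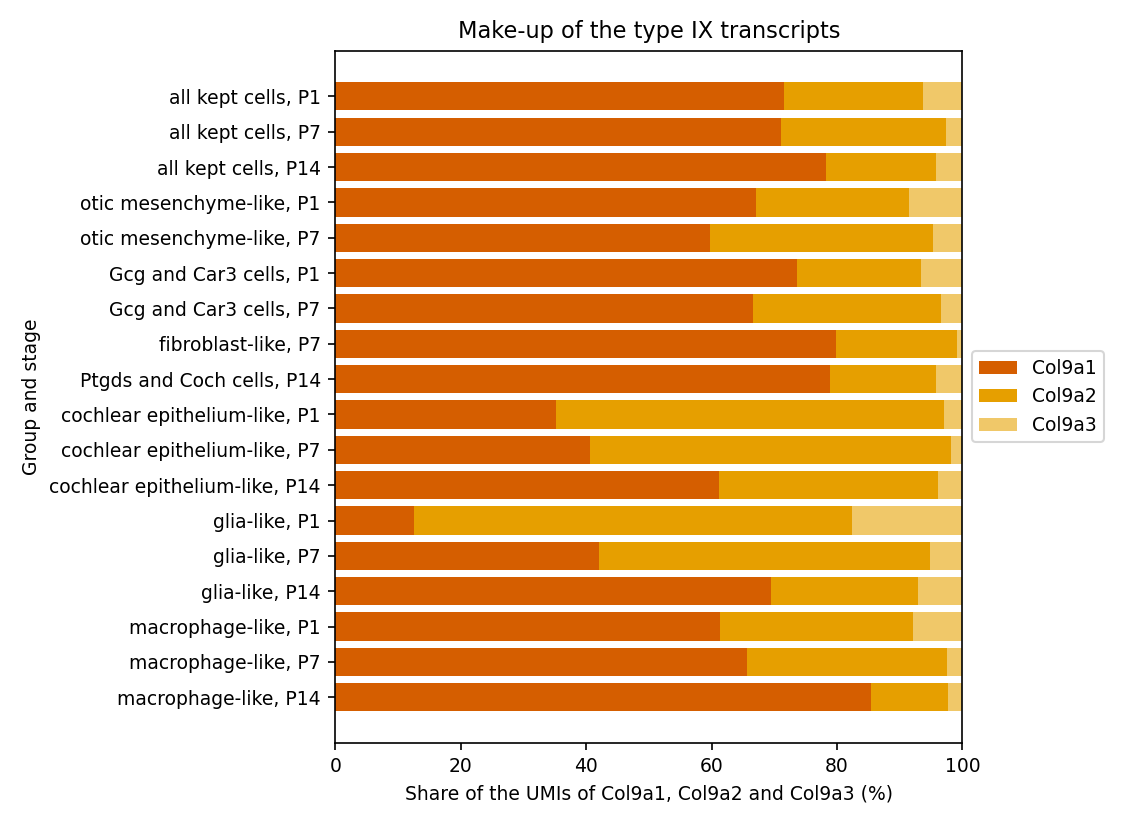
Share of Col9a1, Col9a2 and Col9a3 in the UMIs of the 3 type IX genes, in percent, for all kept cells and 7 groups by stage. Col9a1 takes 71.5% at P1 in all kept cells, and Col9a2 takes 61.9% in the cochlear epithelium-like cells and 69.9% in the glia-like cells of P1.

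Chains of 1 trimer were also counted in the same cells. At full depth, UMIs of all 3 type IX genes were found in 88.6% of the Gcg and Car3 cells (86.4% to 90.5%), 76.6% of the otic mesenchyme-like cells, 70.4% of the Dlx5 and Sfrp4 cells and 17.5% of the fibroblast-like cells. At 1000 UMIs per cell these shares were 28.6%, 23.5%, 20.1% and 1.91% (1.31% to 2.68%), against 1.03% of the macrophage-like cells (0.414% to 2.11%). The intervals of the fibroblast-like and macrophage-like cells overlapped. UMIs of Col2a1, Col11a1 and Col11a2 together were found at full depth in 81.2%, 48.8%, 63.6% and 17.4% of the same 4 groups, against 6.17% of the macrophage-like cells. At 1000 UMIs per cell they were found in 14.2%, 7.26%, 11.7% and 0.894%, and in 1.03% of the macrophage-like cells, so the fibroblast-like cells did not stand above these at equal depth. All these shares sum the libraries. The fibroblast-like cells were mostly of P7 (1629 of 1677), while the macrophage-like cells numbered 182 at P1, 177 at P7 and 348 at P14. In thinned Ptgds and Coch cells, 26.8% of those with a Col11a1 UMI had one of Col11a2, against 7.4% of those without, and 32% against 3.6% had one of Col2a1. In the Gcg and Car3 cells the corresponding shares for Col11a2 were 62.2% and 58.5%. Of all thinned Ptgds and Coch cells, 15.6% had a Col2a1 UMI, 15.6% one of Col11a2 and 42.3% one of Col11a1. No group led by Ptgds and Coch was found at resolution 1.2, and shares within the clusters found there were not measured.

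The share of cells with a UMI at equal depth also differed between genes. After thinning, Col2a1 was found in 23.9% of cells at P1, 31.8% at P7 and 10% at P14, and Col9a1 in 48.2%, 59.6% and 25.8%. Col11a1 was found in 19.2%, 27.5% and 26.4%, and Col11a2 in 7.17%, 19.7% and 11.9%. Both type XI genes were thus found in a larger share of cells at P14 than at P1, and Col2a1 and Col9a1 in a smaller one.

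The genes that act on these collagens were read from lists by role. Of the cartilage transcription factors Sox5, Sox6 and Sox9, 2 passed 10 CPM, and Sox9, the activator of cartilage collagen genes, was at 72.2 at P1, 180 at P7 and 220 at P14. It was the 1 of these 2 genes at least 2-fold higher at P7 than at P1, against 3.32% of all genes. It was highest in the Ptgds and Coch cells at 450.3 CPM and was at 371 in the Gcg and Car3 cells. Among cartilage matrix companions, 3 of 8 were at least 2-fold higher at P7 than at P1, against 3.32% of all genes, and 4 of 8 were lower and 2 of 8 higher at P14 than at P7, against 5.34% and 8.03%. Matn4, matrilin 4, was at 356, 598 and 37.5 CPM at P1, P7 and P14 and was highest in the Gcg and Car3 cells at 1643.

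Enzymes and chaperones that modify collagen chains act in the endoplasmic reticulum. Of 11 such genes above 10 CPM, 2 were at least 2-fold higher at P7 than at P1, against 3.32% of all genes, and 5 were at least 2-fold lower at P14 than at P7, against 5.34%. Ppib, a proline isomerase, was at 1173, 1588 and 559 CPM, Serpinh1, the collagen chaperone HSP47, at 607, 796 and 268, and P4hb, a subunit of prolyl hydroxylase, at 308, 366 and 175. P3h3, a prolyl hydroxylase relative, was at 39.1, 211 and 64.7. Of 3 genes of propeptide processing above the limit, 0 passed 2-fold in either comparison, and Pcolce, the enhancer of procollagen proteinase, was at 145, 220 and 206. Of 4 collagen receptor genes above it, 0 passed 2-fold, and Itgb1, the beta 1 integrin, was at 356, 244 and 264. Among all genes 3.32% were higher and 1.99% lower at P7 than at P1, and 8.03% higher and 5.34% lower at P14 than at P7.

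Other fibrillar collagens share fibrils or chains with these types. Col3a1 was at 684, 1480 and 1715 CPM at P1, P7 and P14 and Col1a1 at 256, 157 and 687. Of the 6 genes of this list, 1 (Col3a1) was at least 2-fold higher at P7 than at P1, against 3.32% of all genes. At P14 against P7, 2 were higher (Col1a1 and Col1a2), against 8.03%, and 1 was lower (Col5a3), against 5.34%. Col5a3 was at 91.2, 109.6 and 41.1 CPM. By group it was highest in the glia-like cells at 507 CPM, against 12.1 in the Gcg and Car3 cells and 11.7 in the Dlx5 and Sfrp4 cells. In the Ptgds and Coch cells Col3a1 was at 3547 and Col1a1 at 1515 CPM beside Col11a1 at 1425. In the Gcg and Car3 cells Col1a1 was at 10.2 and Col3a1 at 451. Of the 2 tectorial membrane genes above the limit, Tectb was at 11.6, 46.7 and 0.0859 CPM at P1, P7 and P14 and Tecta at 21, 21.3 and 2.58. Both were at least 2-fold lower at P14 than at P7, against 5.34% of all genes, and Tectb was at least 2-fold higher at P7 than at P1, against 3.32%. The P14 level of Tectb lies below the 0.258 CPM that a count of 0 allows in that library, which held 78 cochlear epithelium-like cells.

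The patterns of the 6 genes over groups and stages were alike but not equal. Over 47 profiles of group and stage, which share libraries, Pearson's r of log2(CPM + 10) was 0.92 between Col2a1 and Col9a1, 0.87 between Col9a1 and Col9a2, 0.85 between Col9a2 and Col9a3 and 0.73 between Col11a1 and Col11a2. The lowest was 0.55, between Col9a3 and Col11a2. Among 7750 genes, those most like Col2a1 were Pcsk6 (r = 0.88), Ccn4 (0.86), Matn4 (0.85), Chsy1 (0.85) and Nf1x (0.84), and those most like the mean of the 6 were Pcsk6 (0.90), Matn4 (0.89), Fzd9 (0.88), Ccn4 (0.87) and Rbpjl (0.87). Sox9 was the closest gene to Col11a2 at 0.80 and Matn4 to Col9a1 at 0.92, which were named after their values were seen. These are descriptions across profiles that are not independent.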

How the data were processed

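The authors sequenced 10x Genomics 3′ libraries, aligned them to rn6 with Cell Ranger 3.1.0 and deposited UMI counts per gene and barcode, which were used as deposited. Doublets and free RNA were not removed from the deposited counts as far as the sources used here state. Barcodes with more than 500 and fewer than 5000 genes and under 25% mitochondrial UMIs were kept (30641 of 34927). Counts were summed per library and group and given as CPM (each UMI count divided by the UMI total of its library or group and scaled) with exact Poisson intervals, ratios with exact conditional binomial intervals, and shares of cells after thinning each cell to 1000 UMIs, with Clopper-Pearson intervals. Cells under this depth, 37 at P1, 193 at P7 and 735 at P14, were left out of thinned shares. With 1 library per stage no test was run.

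Cells of all libraries were clustered together, with no step to align the libraries. Seurat 5.3.0 was used (2000 variable genes without the 6 collagen genes, 10 principal components, resolution 0.8). A name needed 3 raised markers of 1 list and a leading marker of it, a rule set after marker values were seen. Scrublet in scanpy 1.11.5 marked 4.87%, 6.16% and 0.0379% of cells at P1, P7 and P14. Whether it worked at P14 was not tested, and the low share there is not taken to mean few doublets. A group with over 50% of its cells marked was kept in the counts and is not reported here. Called means at least 2-fold on log2(CPM + 10), among genes with at least 10 CPM. Genes named beside the 6 were at most 4 per list, the highest by level, and the 5 most alike in pattern. Acan, Matn1, Comp, Col10a1, Col1a2 and other genes outside this rule were named after their values were seen. The collagen genes and all lists were chosen with earlier results of these data known. Scripts were tested on simulated data.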

Additional observations from a re-analysis of the deposited data

Results flagged for a closer look

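For 4 pairs of gene and group, the ratio of P7 to P1 pointed in opposite directions in the cochlear epithelium-like cells and in another group, and this difference was not tested, since each stage is 1 library. Col2a1 was 1.9 times as high at P7 in the Dlx5 and Sfrp4 cells and at 0.878 of its P1 level in the epithelium-like cells, a difference of 1.11 on the log2 scale. Between the same groups Col9a2 differed by 1.98 (3.42 and 0.866 times the P1 level) and Col9a3 by 1.21 (1.3 and 0.561 times). Col11a1 differed by 1.38 between the Tac1 and Col6a1 cells, at 1.99 times the P1 level, and the epithelium-like cells, at 0.764. The Dlx5 and Sfrp4 cells numbered 190 at P1 and the Tac1 and Col6a1 cells 185 at P7. Neither was a group at resolution 0.4, where a group led by Tac1 and Sfrp4 held 2361 cells of P1 and 2524 of P7. The differences above were not measured at that resolution.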

How the results depend on the processing

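No paired analysis was possible because each stage is 1 library. All 146 values under other settings kept their direction, although the counts of genes among them could not reverse. Many values moved, which means outside the counting interval of the main value or, for counts, past a set ratio. Of the values for the main results 21 moved and 30 did not, and of the rest 55 moved and 40 did not. For the summed level of the 6 genes, log2 P7 over P1 was 0.96 and became 1.03 with a mitochondrial limit of 10%, 0.78 as a mean of each cell's own level, 0.78 in thinned cells, 0.86 with the median ratio of genes set to 1 and 0.64 with the P1 mix of groups. The log2 ratio of P14 over P7 was -1.66, against -1.83 (10% limit), -1.46 (mean of cells) and -1.36 (thinned). The log2 ratio of the Gcg and Car3 cells over the macrophage-like cells was 3.52, against 3.88 (10% limit), 3.74 (mean of cells), 4.14 (cells marked by Scrublet left out), 3.81 (thinned), 3.56 and 3.25 (resolution 0.4 and 1.2), 3.59 (collagen genes allowed among the variable genes) and 3.04 (highest marker score per cell, where 22.2% of cells lay within 0.25 SD of the next list). The log2 ratio of Col11a2 to Col11a1 was -1.84 at P1, -0.54 at P7 and -1.50 at P14, against -1.75 and -1.57 at P1 and P14 (mean of cells), -1.80 and -1.63 (thinned) and -0.58 at P7 (10% limit). The cause of these differences was not tested. With the 10% limit, 3 of the 6 genes were at least 2-fold higher at P7 than at P1 (3.28% of all genes) and 4 lower at P14 than at P7 (5.55%). The counts of 2 and 3 held with a pseudocount of 1 and, chosen after seeing the data, without the cluster of likely doublets. Leaving out the filter on low values could not change them, since all 6 genes passed it. Over all genes a pseudocount of 1 gave 592 higher and 372 lower at P7 than at P1 in place of 257 and 154, and 1011 higher and 716 lower at P14 than at P7 in place of 622 and 414. With no filter 1025 were higher at P14. The P14 library, with 11641065 UMIs, limits precision most.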
